A study of Gallus gallus with 12 samples.

Results

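The comparison described here set 4 naturally mated White Leghorn hens against 4 control hens, 8 of the 12 arrays of the series, over all 37374 features of the array. Each mated hen had been paired with 1 male of the same breed, a different male for each, and the controls had been neither paired nor inseminated. The utero-vaginal junction (UVJ), the short stretch of oviduct between the shell gland and the vagina, was taken 24 h later, and messenger RNA levels were read with 1 array a hen. The arrays were chosen by their labels and not by any measured value. The remaining 4 arrays, from hens given seminal fluid without sperm, served only for the estimate of the spread. Age and the stage of the egg in the oviduct are not given in the sources. All arrays were on 1 slide, where each group filled 4 neighbouring positions, so that position and mating cannot be told apart.

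The UVJ holds the sperm storage tubules, blind glands of columnar epithelium that open between the folds of a ciliated surface epithelium. Spermatozoa that reach them stay fertile for weeks, during which eggs pass on their way to be laid, and they are foreign cells in a mucosa that also holds lymphocytes and macrophages. The tissue was measured whole. Fewer cells of a type and less RNA per cell therefore cannot be told apart in any value below. Levels are log2 intensities, on which a random-sequence control feature read between 3.85 and 3.95 on the 8 arrays, and they show how one feature differed between hens, not how genes compare with each other.

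No feature differed between mated and control hens after Benjamini-Hochberg adjustment in limma, where the smallest adjusted p was 0.912. The unadjusted threshold of 0.05 was passed by 828 features, 2.22% of those tested, against the 5% that the threshold admits where nothing differs. Of them 504 were higher in mated hens (1.35%) and 324 were lower (0.867%). In 499 features (1.34%) the groups of hens did not overlap. This is below the share of 0.0286 that a split of 8 hens into 4 and 4 gives where nothing differs. An unadjusted p under 0.01 was reached by 128 features and one under 0.001 by 17. "Passed the test" means the unadjusted threshold from here on. With no feature past adjustment and a share below 5%, no single gene below stands as established. The share depended on the hens and was 5.64% without mated hen 3, where no feature passed adjustment either.

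The differences were mostly small. The median size among the features that passed was 0.43 on the log2 scale, and 57 differed by more than 1, 29 higher and 28 lower in mated hens. Passing depended on the level. Of the 5535 features with a mean log2 level under 6, 4.63% passed, 164 higher and 92 lower in mated hens. Between 6 and 8 the share was 4.92%, with 179 higher and 91 lower. At 12 and over it was 0.362% of 8296 features, with 18 higher and 12 lower. The excess of higher calls thus lay among the dim features, while from a level of 8 upward both directions were about equally frequent (78 higher and 72 lower between 8 and 10).

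**Figure D1:**
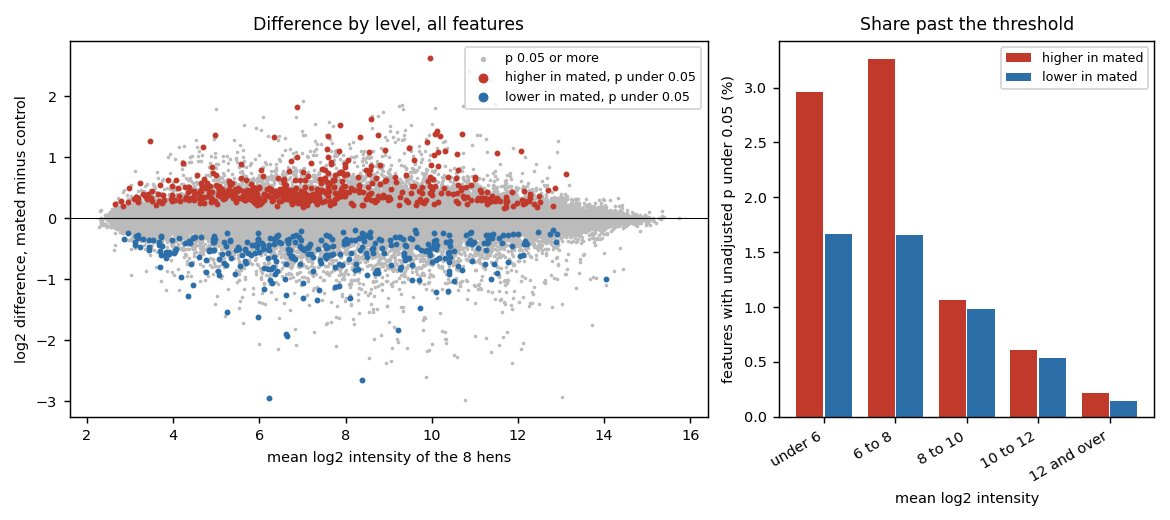
Left, the log2 difference of mated minus control hens (vertical axis) against the mean log2 intensity of the 8 hens (horizontal axis), 1 point a feature, with the 504 features higher in mated hens in red, the 324 lower ones in blue and all others in grey. Right, the percentage of features in each range of mean log2 intensity that passed the unadjusted threshold, red for higher and blue for lower in mated hens. The share was 4.63% under a level of 6 and 0.362% at 12 and over.

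Hens of one group differed from each other more than the groups did. The difference between the group means held 9.38% of the total variance of the 8 arrays, a share that was not compared with other splits of these hens. The first principal component, by construction the axis of largest variance and so not a like measure, held 52.2%. It placed mated hens at 0.08, 0.24, -0.49 and 0.47, against controls at 0.16, -0.26, -0.41 and 0.22. Mated hens 3 and 4 thus lay at opposite ends and the groups overlapped. Their arrays also correlated least with their own group, with a mean r of 0.957 for mated hen 3 and 0.963 for mated hen 4, against 0.974 to 0.981 for the other 6. Of the 10994 characterised genes, represented by their brightest feature, 21.5% were highest in mated hen 4 and 20.5% were lowest in it. Mated hen 3 was the lowest of the 8 for 21.5%. In mated hens 1 and 2 these shares lay between 5.58% and 8.51%.

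The tissue carried the markers of its layers in every hen. Of the 22 measured marker genes none passed the test. EPCAM and CDH1 of epithelia, FOXJ1 of ciliated cells, PAX2 of the oviduct, MYH11 and TAGLN of smooth muscle and COL1A2 of connective tissue had levels between 13.1 and 14.8 in all 8 hens. KRT19 (KRT24 in the reference table), a keratin of simple epithelia by its array name, was also bright in all of them. KRT8 had 14.31, 14.29, 14.46 and 14.12 in the mated hens, against 14.23, 14.37, 14.49 and 14.35 in the controls. ACTA2, PECAM1, PGR, ESR1, CDH5 and LYZ were detected in every hen as well, with differences between -0.26 and 0.06. Of these, LYZ (lysozyme) had been chosen, like OVAL below, as a marker of the magnum, the egg white segment. Other markers of neighbouring segments and of other epithelia varied between hens instead. SPP1, an eggshell matrix protein of the shell gland, had 12.97, 11.62, 8.80 and 9.31 in the mated hens, against 11.67, 12.67, 14.49 and 11.65 in the controls. CALB1, the shell gland calcium-binding protein, had 7.89, 4.24, 7.44 and 4.13 in the mated hens, against 4.17, 7.41, 12.38 and 7.04 in the controls. Mated hens 2 and 4 and control hen 1 were lowest, and control hen 3 was far above all others. OVAL (SERPINB14 on the array), ovalbumin of the egg white, had 7.10, 5.70, 4.29 and 4.38 in the mated hens, against 6.81, 11.37, 6.04 and 5.85 in the controls, with control hen 2 on its own at the top.

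Genes of stratified squamous epithelium separated the hens in another way. TP63, the master regulator of that epithelium, had 11.52, 12.72, 11.66 and 13.99 in the mated hens, against 10.97, 10.50, 10.31 and 13.46 in the controls. KRT5 had 11.23, 12.51, 10.27 and 13.27 in the mated hens, against 10.85, 9.64, 9.70 and 12.72 in the controls, and KRT14 had 8.92, 10.44, 8.60 and 10.92 in the mated hens, against 8.54, 8.07, 8.50 and 9.96 in the controls. For all 3, mated hens 2 and 4 and control hen 4 were the highest. PTPRC, the common leukocyte antigen, had 10.68, 11.29, 10.13 and 12.53 in the mated hens, against 10.56, 10.96, 10.08 and 10.47 in the controls, so that mated hen 4 stood above the other 7. These levels moved with several gene groups below, and their part in those results was not tested.

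Among characterised genes, 169 of 10994 passed (1.54%), 98 higher (0.891%) and 71 lower (0.646%) in mated hens. In 64 of them the 2 groups of hens did not overlap, beside 124 (1.13%) non-overlapping genes among all characterised ones, and 51 of the 169 still passed when any 1 of the 8 hens was left out. The 15 genes with the smallest p in each direction, taken at a level of at least 4.88, which is 1 above the random control, were among these 51. In each sentence below, the hens of a group stand in the order 1 to 4, and differences are mated minus control with the standard error of the fit. Where the groups overlapped, the exact two-sided permutation p of the difference between the 4 mated and 4 control hens is given too. Without overlap this p is 0.0286, the smallest that 4 hens against 4 allow. A call that was lost when a hen was left out is given with that hen and the smallest difference over the fits that lost it, and every other call described below held in all 8 fits that left out 1 hen.

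The smallest p of all belonged to NFYA, the DNA-binding subunit of the CCAAT-box factor NF-Y. NFYA had 9.94, 9.92, 10.18 and 9.98 in the mated hens, against 10.89, 11.04, 11.46 and 10.72 in the controls, a difference of -1.02 ± 0.16. The mated hens lay close together and all below every control, at a mean of 0.492-fold the control intensity. Of 23 measured NF-Y subunits and partner factors, 1 more passed, CEBPB, a leucine zipper activator of inflammatory genes, which was higher in mated hens. CEBPB had 8.59, 8.84, 8.56 and 8.89 in the mated hens, against 8.73, 8.08, 8.21 and 8.37 in the controls, a difference of 0.37 ± 0.15 (exact permutation p = 0.0857), and control hen 1 overlapped the mated group. Leaving out mated 2, mated 4, control 2 or control 3 ended the call for CEBPB (difference 0.29). The partner subunit NFYB had a difference of 0.18 (exact permutation p = 0.114).

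Receptors and trafficking proteins followed. NMUR1, a receptor for neuromedin U that contracts smooth muscle and acts on innate lymphoid cells in mammals, had 6.48, 6.40, 6.71 and 5.88 in the mated hens, against 6.87, 7.61, 8.47 and 7.78 in the controls, a difference of -1.31 ± 0.29. LZTFL1, which controls the traffic of the BBSome complex into cilia, had 8.37, 8.66, 9.91 and 9.03 in the mated hens, against 11.13, 10.41, 9.92 and 10.38 in the controls, a difference of -1.47 ± 0.35. No mated hen reached a control in either gene, although for LZTFL1 mated hen 3 was almost level with control hen 3. The other 42 of 43 measured genes of cilium traffic did not pass, nor did any of 42 genes of ciliated cells, whose medians were 0.02 and 0.07 beside 0.00 over all characterised genes. OPN3, a light-sensitive opsin expressed outside the eye, was dim and had 4.59, 4.15, 4.25 and 4.70 in the mated hens, against 4.84, 5.16, 5.24 and 5.20 in the controls, a difference of -0.69 ± 0.18. It was the only one of 26 clock and opsin genes to pass.

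Several of the lower genes are expressed in many tissues. SEL1L, the adaptor of the ubiquitin ligase that clears misfolded proteins from the endoplasmic reticulum, had 11.46, 11.50, 11.44 and 11.30 in the mated hens, against 11.81, 11.87, 11.83 and 11.78 in the controls. The difference of -0.40 ± 0.11 was small, but the hens of each group lay close together and the groups did not overlap. OSGEPL1, a mitochondrial tRNA-modifying enzyme, had 11.001, 11.42, 11.07 and 10.79 in the mated hens, against 11.84, 12.10, 12.02 and 11.35 in the controls, a difference of -0.76 ± 0.20 (exact permutation p = 0.0571), with mated hen 2 just above control hen 4. POMT2, which starts O-mannosyl chains on dystroglycan, had 9.45, 9.85, 9.86 and 9.38 in the mated hens, against 10.27, 9.90, 10.20 and 10.27 in the controls, a difference of -0.52 ± 0.15. DUSP19, a dual-specificity phosphatase of stress kinase pathways, had 11.64, 11.59, 11.68 and 11.59 in the mated hens, against 11.94, 11.84, 11.83 and 11.97 in the controls, a difference of -0.27 ± 0.09. Neither POMT2 nor DUSP19 overlapped.

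Other lower genes are known from blood clotting and from striated muscle. Muscle genes went both ways, since MYL1 and UNC45B were among the 15 higher genes given below. F2, prothrombin, had 6.003, 5.39, 6.37 and 5.65 in the mated hens, against 6.30, 6.59, 6.85 and 6.98 in the controls, a difference of -0.83 ± 0.24 (exact permutation p = 0.0571), and mated hen 3 overlapped control hen 1. TFPI, the inhibitor that blocks the start of clotting, had 7.41, 7.43, 7.21 and 7.41 in the mated hens, against 7.85, 7.92, 8.03 and 7.54 in the controls, a difference of -0.47 ± 0.14, with all mated hens below all controls. MYOZ2, a protein of the sarcomere Z disc, had 6.27, 6.03, 5.63 and 5.78 in the mated hens, against 7.03, 6.54, 7.07 and 6.25 in the controls, a difference of -0.80 ± 0.23 (exact permutation p = 0.0571). ITGB1BP2, the muscle protein melusin, ranged widely at 8.21, 7.38, 6.21 and 7.01 in the mated hens, against 8.66, 7.997, 7.96 and 8.68 in the controls, a difference of -1.12 ± 0.36 (exact permutation p = 0.0857). Weighting each array by its fitted quality ended the call for ITGB1BP2 (difference -0.68). In both muscle genes 1 mated hen, number 1, exceeded at least 1 control. The 15 also held SNORA28, a small nucleolar RNA, with a difference of -0.36 (exact permutation p = 0.0571), and DYSFIP1, a phosphatase-binding muscle protein, with -0.45 (exact permutation p = 0.0571).

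**Figure D2:**
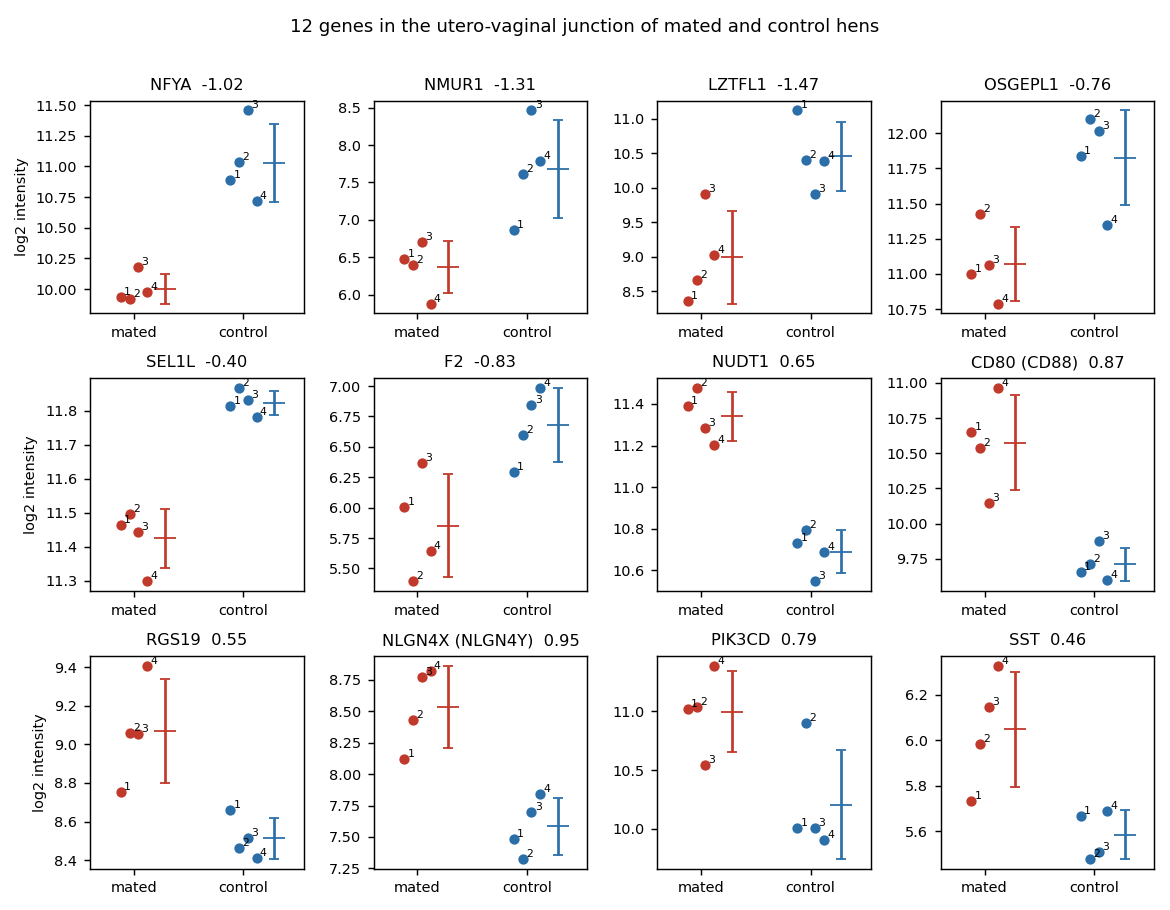
Log2 intensity of 12 genes (vertical axes) in each mated hen (red, left) and each control hen (blue, right), numbered 1 to 4, with the mean and SD of each group as a bar beside the points and the log2 difference (mated minus control) above each panel. The groups do not overlap except in OSGEPL1, F2 and PIK3CD, each through a single control hen.

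On the higher side the smallest p was that of NUDT1, the enzyme that removes oxidised purine nucleotides from the nucleotide pool. NUDT1 had 11.39, 11.48, 11.29 and 11.21 in the mated hens, against 10.73, 10.79, 10.55 and 10.69 in the controls, a difference of 0.65 ± 0.11. Every mated hen exceeded every control. The other 64 of 65 measured antioxidant and nucleotide pool genes did not pass and their median difference was -0.05.

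The brighter genes among the higher ones included signalling proteins of leukocytes. CD80 (CD88 in the reference table), the costimulatory ligand of antigen-presenting cells by its array name, had 10.65, 10.54, 10.15 and 10.96 in the mated hens, against 9.65, 9.71, 9.87 and 9.60 in the controls, a difference of 0.87 ± 0.21. The highest control lay below the lowest mated hen, and the mated mean was 1.82-fold the control mean. PIK3CD, the lipid kinase subunit of leukocytes, had 11.02, 11.04, 10.54 and 11.39 in the mated hens, against 10.01, 10.90, 10.01 and 9.91 in the controls, a difference of 0.79 ± 0.25 (exact permutation p = 0.0571). Control hen 2 lay among the mated hens while the other 3 controls were close together below them. RGS19, which shortens signalling by G protein-coupled receptors, had 8.75, 9.06, 9.06 and 9.41 in the mated hens, against 8.66, 8.47, 8.51 and 8.41 in the controls, a difference of 0.55 ± 0.16, without overlap. In CD80, PIK3CD and RGS19 mated hen 4, which also had the highest PTPRC, was the highest of all 8 hens.

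Most of the other higher genes were dim: 10 of the 15 had a mean level under 8. SST, the peptide hormone somatostatin, had 5.73, 5.98, 6.15 and 6.33 in the mated hens, against 5.67, 5.48, 5.51 and 5.69 in the controls, a difference of 0.46 ± 0.13. NLGN4X (NLGN4Y in the reference table), a neuroligin of synaptic contacts, was brighter with 8.12, 8.43, 8.77 and 8.82 in the mated hens, against 7.48, 7.32, 7.70 and 7.84 in the controls, a difference of 0.95 ± 0.28. Neither overlapped. Differences of 0.33 to 0.54 were seen for GRID2IP and METRN, which act in neurons, ACTL9, an actin-like protein of the testis, MYL1 and UNC45B, a light chain and a chaperone of muscle myosin, OLIG3 and MSGN1, developmental transcription factors, and DND1, an RNA-binding protein of germ cells. All 8 had levels between 4.67 and 7.44 in every hen. The groups overlapped in MYL1, UNC45B and DND1 (exact permutation p = 0.0571 for each) and not in the other 5. A second, dimmer feature for GRID2IP differed by -0.18, against 0.40 for the brighter one, and did not pass.

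Gene groups were compared through 46 lists of 18 to 88 measured genes, 1 feature a gene. In 28 lists at least 1 member passed the test and in 18 none did. The share to set each count of members against is the 1.54% of all characterised genes that passed. In lists of this size these counts are a description only. The lists were chosen with earlier results of these data known, and several hold a gene named above. A list share above 1.54% is therefore not independent of the data. The 1.54% also covers genes of all levels, while dim features passed more often. The list medians ran from -0.17 for eggshell matrix genes to 0.50 for chemokines and their receptors, and without mated hen 4 from -0.17 to 0.16. The sign turned without that hen in 15 of the 46. The level of a list in a hen was taken as the mean over its members of the difference from the control mean. Mated hen 4 was the highest of the 8 hens in 14 lists and the lowest in 12, and mated hen 3 the lowest in 19. In only 2 lists did the levels of mated hens and controls not overlap, coagulation and fibrinolysis and growth factor signalling.

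**Figure D3:**
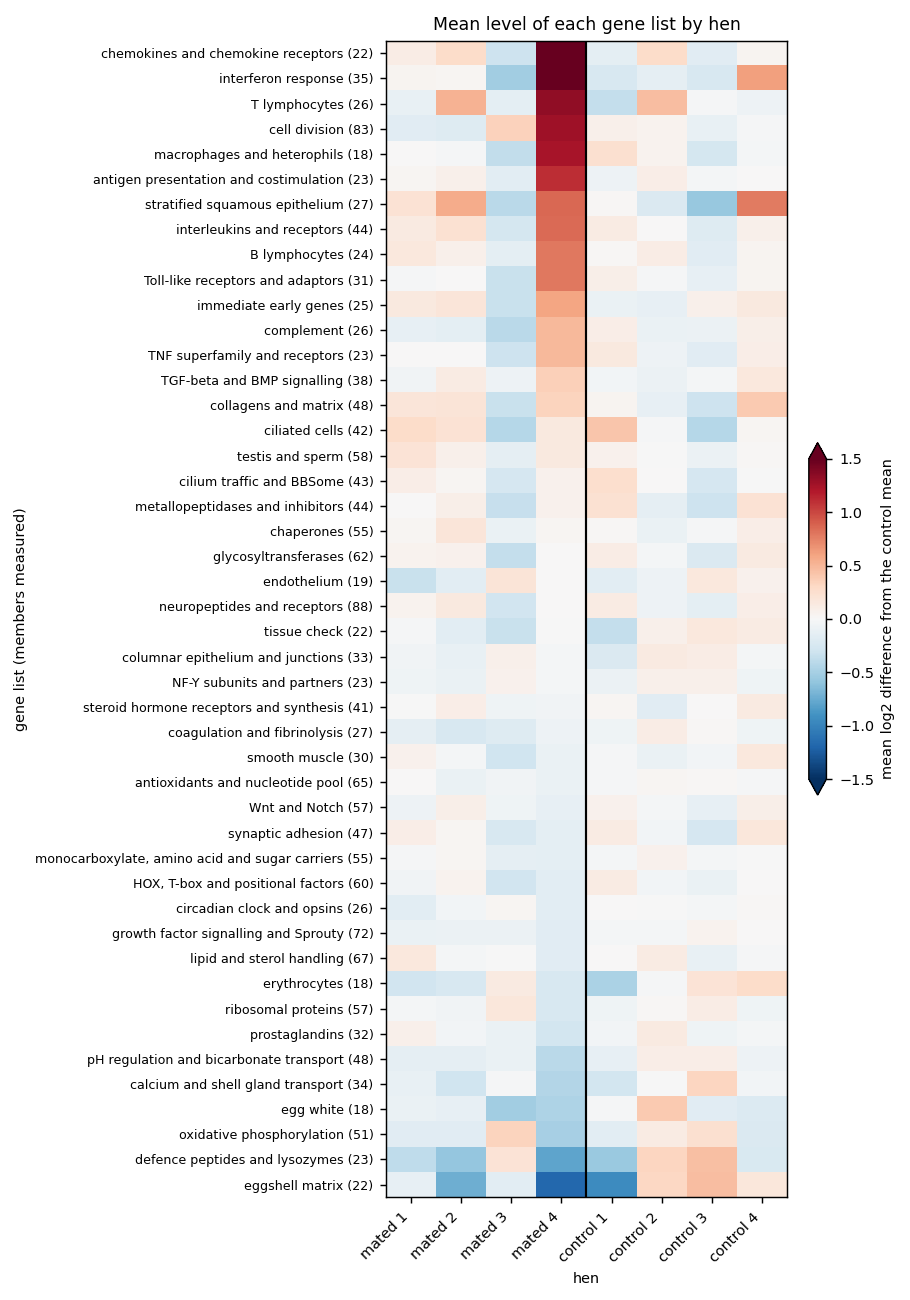
Mean log2 difference from the control mean (colour, cut off at -1.5 and 1.5) for 46 gene lists (rows, with the number of measured members) in each hen (columns, mated hens left of the line and controls right of it). Rows are ordered by the level in mated hen 4, which ran from 1.71 for chemokines to -1.18 for eggshell matrix genes.

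Most immune gene lists were at their highest in 1 mated hen. In the 10 lists of immune cells, cytokines and their receptors, Toll-like receptors, antigen presentation, interferon response and complement, mated hen 4 had the highest level of the 8, and in 8 of them mated hen 3 had the lowest. The list of defence peptides and lysozymes did not follow, and was lowest in mated hen 4, at -0.38, -0.58, 0.21 and -0.79 in the mated hens, against -0.55, 0.33, 0.46 and -0.23 in the controls. Chemokines and their receptors stood at 0.11, 0.27, -0.31 and 1.71 in the mated hens, against -0.15, 0.28, -0.16 and 0.04 in the controls. Of the 22 genes 21 were highest in mated hen 4, against 21.5% of all characterised genes. Their median difference of 0.50 was 0.08 without that hen. Interferon response genes stood at 0.04, 0.03, -0.52 and 1.64 in the mated hens, against -0.24, -0.13, -0.24 and 0.61 in the controls, with control hen 4 the next highest, and 31 of 35 were highest in mated hen 4. Their median was 0.29, and -0.13 without it.

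Lymphocyte and macrophage genes followed the same hen. T lymphocyte genes stood at -0.12, 0.52, -0.14 and 1.33 in the mated hens, against -0.36, 0.46, -0.02 and -0.08 in the controls, and 23 of 26 were highest in mated hen 4. Macrophage and heterophil genes stood at 0.01, -0.02, -0.37 and 1.23 in the mated hens, against 0.24, 0.06, -0.27 and -0.03 in the controls, and B lymphocyte genes at 0.15, 0.08, -0.15 and 0.79 in the mated hens, against 0.02, 0.11, -0.17 and 0.04 in the controls. None of the 26 T lymphocyte, 18 macrophage, 44 interleukin, 31 Toll-like receptor or 35 interferon response genes passed the test. The median difference of T lymphocyte genes was 0.44, or 0.16 without mated hen 4. That of interleukins and receptors was 0.26, or 0.03 without it, and that of Toll-like receptors and adaptors was 0.12, or -0.09. Of the members with the smallest p, the T cell receptor kinase ZAP70 had 9.01, 10.29, 9.13 and 10.79 in the mated hens, against 8.47, 9.90, 8.91 and 8.72 in the controls, and IFNG, interferon gamma, had 3.69, 4.07, 3.36 and 6.38 in the mated hens, against 3.42, 3.65, 3.20 and 3.21 in the controls. For IFNG the other 3 mated hens and the controls were all near the random control feature.

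Some single genes showed how far mated hen 4 lay from the rest, and were chosen after their values were seen. IL8L2, a chicken interleukin-8 that draws heterophils, had 3.09, 3.10, 3.04 and 8.56 in the mated hens, against 4.32, 2.92, 3.25 and 3.06 in the controls. IFIT5, an interferon-induced RNA sensor, had 10.71, 10.02, 9.13 and 13.77 in the mated hens, against 8.89, 10.003, 10.19 and 11.91 in the controls, and RSAD2, the antiviral protein viperin, had 8.68, 8.95, 7.02 and 13.12 in the mated hens, against 7.57, 7.87, 8.57 and 10.55 in the controls. CD274, the checkpoint ligand PD-L1, had 9.79, 9.55, 9.64 and 12.02 in the mated hens, against 9.36, 9.81, 10.04 and 9.97 in the controls. In IL8L2 and CD274 the other 3 mated hens lay within or below the range of the controls, and in IFIT5 and RSAD2 the next highest was control hen 4.

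Of 23 antigen presentation and costimulation genes 3 passed, CD80, CD40LG and TNFSF4, all higher (13.04%, beside 1.54% of all characterised genes). The list was chosen with earlier results known, so this share is not independent of them. The list itself stood at 0.03, 0.07, -0.16 and 1.11 in the mated hens, against -0.08, 0.10, -0.03 and 0.00 in the controls, with a median of 0.24, or -0.08 without mated hen 4. CD40LG, the T cell ligand that licenses antigen-presenting cells, had 6.96, 6.86, 6.79 and 6.99 in the mated hens, against 6.77, 6.44, 6.58 and 6.66 in the controls, a difference of 0.29 ± 0.10, and did not overlap. TNFSF4, the ligand of the T cell receptor OX40, had 6.77, 7.22, 7.03 and 7.42 in the mated hens, against 6.59, 6.60, 6.54 and 6.72 in the controls, a difference of 0.50 ± 0.22, without overlap. TNFSF4 no longer passed without mated 2, mated 3, mated 4, control 1, control 2, control 3 or control 4 (difference 0.39). CD72, a B cell surface receptor and the only one of 24 B lymphocyte genes to pass, had 7.72, 7.65, 9.23 and 8.55 in the mated hens, against 7.61, 7.63, 7.42 and 7.45 in the controls, a difference of 0.76 ± 0.29. There mated hen 3 was the highest, and mated hens 1 and 2 were barely above the highest control. The call for CD72 was lost without mated 4, control 3 or control 4 (difference 0.67). CCR9, the gut-homing chemokine receptor, had 6.12, 6.47, 6.46 and 6.59 in the mated hens, against 5.70, 5.91, 5.84 and 6.29 in the controls, a difference of 0.48 ± 0.17 (exact permutation p = 0.0571), and was the only one of 22 chemokine genes to pass. Leaving out control 1 ended the call for CCR9 (difference 0.40). Of 23 genes of the tumour necrosis factor superfamily TNFSF4 alone passed, with a list median of 0.04, and none of 26 complement genes did.

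Cell division genes were high in mated hens 3 and 4. The 83 genes stood at -0.17, -0.20, 0.35 and 1.27 in the mated hens, against 0.07, 0.06, -0.12 and -0.01 in the controls. Of them 71 were higher in the mated mean and 64 were highest in mated hen 4, yet 2 passed, and the median of 0.28 was -0.01 without mated hen 4. PLK4, the kinase that starts centriole duplication, had 9.12, 8.88, 9.20 and 9.64 in the mated hens, against 8.62, 8.64, 8.20 and 8.96 in the controls, a difference of 0.60 ± 0.21 (exact permutation p = 0.0571). CCNE2, a cyclin of entry into S phase, had 7.67, 7.33, 8.37 and 8.03 in the mated hens, against 7.25, 6.09, 7.55 and 7.28 in the controls, a difference of 0.81 ± 0.33 (exact permutation p = 0.0571). Control hens overlapped the mated hens in both. PLK4 no longer passed without mated 4 or control 3 (difference 0.46). The call for CCNE2 was lost without mated 3, mated 4 or control 2 (difference 0.49). NEK2, a centrosome kinase that did not pass (exact permutation p = 0.200), had 6.33, 6.55, 7.41 and 8.70 in the mated hens, against 6.51, 6.43, 6.27 and 6.46 in the controls, so that mated hens 3 and 4 were high and mated hens 1 and 2 were level with the controls.

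Genes of oxidative phosphorylation ran opposite in those 2 hens. Of 51 genes, 40 were highest in mated hen 3 and 43 were lowest in mated hen 4, and the list stood at -0.17, -0.17, 0.33 and -0.50 in the mated hens, against -0.16, 0.12, 0.24 and -0.21 in the controls. None passed, 3 had a higher mated mean, and the median of -0.12 was -0.01 without mated hen 4 and -0.28 without mated hen 3. Ribosomal protein genes were alike, with 38 of 57 highest in mated hen 3 and 46 lowest in mated hen 4. One passed, RPL9, which had 10.84, 10.53, 11.68 and 10.38 in the mated hens, against 11.73, 11.40, 11.52 and 11.80 in the controls, a difference of -0.75 ± 0.33 (exact permutation p = 0.0857), and mated hen 3 was within the controls there. Leaving out mated 1, mated 2, mated 4, control 1, control 3 or control 4 ended the call for RPL9 (difference -0.59).

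**Figure D4:**
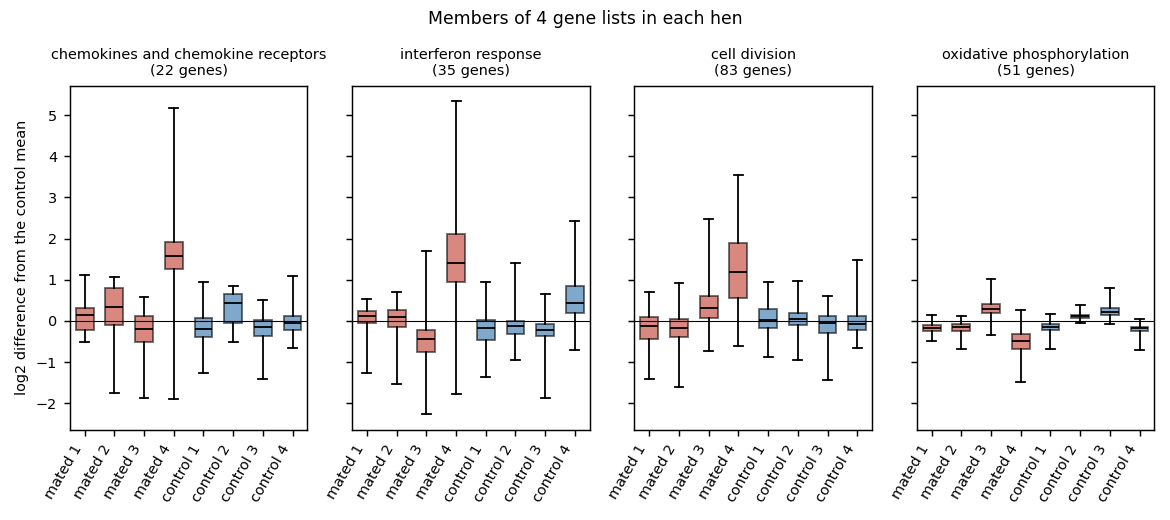
Log2 difference from the control mean (vertical axis) of every measured member of 4 gene lists in each hen (mated in red, left, and control in blue, right); boxes span the quartiles, lines mark the medians and whiskers reach the extremes. Chemokine, interferon response and cell division genes are raised in mated hen 4, whose list levels are 1.71, 1.64 and 1.27, and oxidative phosphorylation genes are lowest there, at -0.50.

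Of 27 measured coagulation and fibrinolysis genes 2 passed, F2 and TFPI, both lower, and 12 had a higher mated mean. The list stood at -0.13, -0.23, -0.20 and -0.08 in the mated hens, against -0.06, 0.11, 0.02 and -0.06 in the controls, so that every mated hen lay below every control by a narrow margin, and the median difference was -0.04 beside 0.00 over all characterised genes. F10 (factor X) differed by -0.49 (exact permutation p = 0.314) and PLAU, the urokinase plasminogen activator, by -0.63 (exact permutation p = 0.229). Of the complement genes, MASP1, a protease that starts the lectin pathway, came nearest to the threshold. MASP1 had 7.25, 7.33, 6.04 and 6.96 in the mated hens, against 7.98, 7.50, 8.01 and 9.02 in the controls, a difference of -1.23 ± 0.56, and all mated hens lay below all controls.

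Of 48 genes of pH regulation 1 passed in each direction (4.17%, beside 1.54% of all characterised genes), and 32 were lower in the mated mean. The list stood at -0.13, -0.14, -0.09 and -0.40 in the mated hens, against -0.12, 0.10, 0.10 and -0.08 in the controls, with a median of -0.09. SLC4A9, an anion exchanger, had 8.40, 9.57, 9.72 and 9.21 in the mated hens, against 7.93, 8.37, 8.17 and 8.95 in the controls, a difference of 0.87 ± 0.36 (exact permutation p = 0.0571). SLC26A1, a sulphate and anion exchanger, was dim and had 4.54, 4.86, 4.62 and 5.32 in the mated hens, against 5.80, 5.17, 5.02 and 5.67 in the controls, a difference of -0.58 ± 0.23 (exact permutation p = 0.0857). Each had a hen that overlapped the other group. SLC4A9 no longer passed without mated 2, mated 3, mated 4, control 1, control 2 or control 3 (difference 0.71). The call for SLC26A1 was lost without mated 1, mated 3, control 1 or control 4 (difference -0.45). Of 55 carriers of monocarboxylates, amino acids and sugars, SLC38A6, an amino acid transporter, had 10.05, 10.17, 10.30 and 9.84 in the mated hens, against 10.82, 10.58, 11.03 and 10.21 in the controls, a difference of -0.57 ± 0.20 (exact permutation p = 0.0571).

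Shell gland genes varied widely between hens. RYR3, a calcium release channel, was the only one of 34 calcium transport genes to pass and had 7.84, 6.99, 6.95 and 6.50 in the mated hens, against 7.51, 7.81, 7.51 and 8.40 in the controls, a difference of -0.74 ± 0.32 (exact permutation p = 0.114). Leaving out mated 2, mated 3, mated 4, control 2 or control 4 ended the call for RYR3 (difference -0.54). RARRES1, the shell matrix protein ovocalyxin-32, was the only one of 22 eggshell matrix genes to pass. It had 14.39, 12.44, 14.28 and 13.03 in the mated hens, against 14.47, 14.44, 14.73 and 14.50 in the controls, a difference of -1.001 ± 0.41, and mated hens 1 and 3 were near the controls while mated hens 2 and 4 were far below. RARRES1 no longer passed without mated 2, mated 4, control 1, control 2, control 3 or control 4 (difference -0.64). The eggshell matrix list stood at -0.12, -0.73, -0.16 and -1.18 in the mated hens, against -0.94, 0.31, 0.47 and 0.16 in the controls, with control hen 1 as low as mated hens 2 and 4. CALB1, given above, was lowest in the same hens, and SPP1 in mated hens 3 and 4. None of 18 egg white genes and none of 23 defence peptide and lysozyme genes passed.

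Neuropeptide and synaptic genes passed in small number. Of 88 neuropeptide and receptor genes, 3 did (3.41%, beside 1.54% of all characterised genes): NMUR1, lower, and SST and PENK, higher. The group means of all 3 lay under a level of 8. Of all features, 4.63% passed under a level of 6 and 4.92% between 6 and 8, so 3.41% is no excess at such levels. PENK, the precursor of the enkephalin opioids, had 7.29, 7.62, 7.59 and 7.24 in the mated hens, against 7.08, 6.96, 7.21 and 6.92 in the controls, a difference of 0.39 ± 0.13, and did not overlap. CALCRL, a receptor for calcitonin gene-related peptide and adrenomedullin, did not pass and had 7.35, 7.39, 8.63 and 8.33 in the mated hens, against 6.36, 5.96, 6.09 and 8.21 in the controls (exact permutation p = 0.0857). Of 47 synaptic adhesion genes, NLGN4X was higher and NELL1, a secreted protein of bone and nerve development, was lower. NELL1 had 6.75, 5.55, 4.37 and 6.33 in the mated hens, against 6.73, 7.20, 7.11 and 6.04 in the controls, a difference of -1.02 ± 0.45 (exact permutation p = 0.143), with mated hens 1 and 4 inside the range of the controls. The call for NELL1 was lost without mated 2, mated 3, control 1, control 2 or control 3 (difference -0.56).

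Transcription factors and growth signals went both ways. Among 60 HOX, T-box and other positional factors, 2 were higher and 2 lower (6.67%, beside 1.54% of all characterised genes). NANOG, the pluripotency factor, had the largest difference of any characterised gene that passed, with 9.52, 8.91, 7.90 and 6.85 in the mated hens, against 10.68, 10.52, 9.66 and 9.69 in the controls, a difference of -1.84 ± 0.67. The mated hens were spread widely and all lay below the controls. Leaving out mated 4 or control 1 ended the call for NANOG (difference -1.36). TBX4, a hind limb and genital tract factor, had 8.05, 7.68, 7.21 and 6.45 in the mated hens, against 8.61, 7.55, 8.23 and 8.21 in the controls, a difference of -0.80 ± 0.33 (exact permutation p = 0.0857), while its 3 other features differed by 0.08, -0.18 and -0.92 without passing. TBX4 no longer passed without mated 3, mated 4, control 1, control 3 or control 4 (difference -0.50). TBX5, a fore limb and heart factor, differed by 0.38 (exact permutation p = 0.0571), and POU1F1, a pituitary factor, by 0.63 (exact permutation p = 0.0286) near the level of the random control. The call for TBX5 was lost without mated 2, mated 4, control 1 or control 2 (difference 0.26).

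Of 72 growth factor signalling genes, 2 were higher and 1 lower. IGF2BP1, an RNA-binding protein of embryonic tissues, had 4.71, 6.27, 4.77 and 5.60 in the mated hens, against 4.57, 4.48, 4.39 and 4.50 in the controls, a difference of 0.85 ± 0.29. The controls were close together, while mated hens 2 and 4 were clearly above and mated hens 1 and 3 hardly so. SPRY4, a feedback inhibitor of receptor tyrosine kinases, had 8.54, 8.60, 8.84 and 8.33 in the mated hens, against 8.21, 7.80, 8.22 and 7.98 in the controls, a difference of 0.52 ± 0.19, without overlap. Leaving out mated 3 or control 2 ended the call for SPRY4 (difference 0.44). FGF13, an intracellular fibroblast growth factor homologue, had 7.81, 7.59, 7.65 and 6.74 in the mated hens, against 8.57, 7.66, 10.23 and 8.55 in the controls, a difference of -1.30 ± 0.54 (exact permutation p = 0.0571), with control hen 3 on its own at the top. FGF13 no longer passed without mated 2, mated 4, control 1 or control 3 (difference -0.81). WNT8A was the only one of 57 Wnt and Notch genes to pass (0.58, exact permutation p = 0.0857), and none of 38 TGF-beta and BMP genes did. The call for WNT8A was lost without mated 2, mated 4, control 2 or control 4 (difference 0.44).

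Of 48 collagen and matrix genes 2 passed (4.17%, beside 1.54% of all characterised genes), both of the CCN family. Another member of that family, CTGF (CCN2 in the reference table), differed by only 0.003. CYR61, an early gene of wound repair that binds integrins, had 11.78, 11.53, 11.24 and 11.40 in the mated hens, against 11.08, 10.73, 11.24 and 11.19 in the controls, a difference of 0.43 ± 0.14. For CYR61 mated hen 3 was almost level with control hen 3. NOV (CCN3 in the reference table), its relative, had the largest positive difference of a characterised gene that passed, with 10.43, 11.38, 9.81 and 11.73 in the mated hens, against 9.43, 9.27, 8.33 and 10.56 in the controls, a difference of 1.44 ± 0.60 (exact permutation p = 0.0857). In NOV control hen 4 overlapped the mated hens and control hen 3 was far below. Leaving out mated 2, mated 4, control 1, control 2 or control 3 ended the call for NOV (difference 1.08). Of 44 metallopeptidases and inhibitors, PGCP, a secreted plasma carboxypeptidase, had 11.98, 11.73, 11.44 and 11.82 in the mated hens, against 12.86, 12.11, 11.997 and 12.51 in the controls, a difference of -0.63 ± 0.23, and its second feature was lower as well (-0.77). PGCP no longer passed without mated 3 or control 1 (difference -0.46). MMP27, a stromelysin-like matrix metalloproteinase, had 10.04, 9.0, 9.23 and 9.74 in the mated hens, against 10.32, 9.63, 10.05 and 10.07 in the controls, a difference of -0.51 ± 0.23 (exact permutation p = 0.143), with overlap. The call for MMP27 was lost without mated 2, mated 3, control 1, control 3 or control 4 (difference -0.35).

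Of 67 lipid and sterol genes 3 passed (4.48%, beside 1.54% of all characterised genes). LPL, which frees fatty acids from circulating triglyceride, had 9.04, 9.55, 8.69 and 8.86 in the mated hens, against 9.96, 9.29, 9.57 and 10.05 in the controls, a difference of -0.68 ± 0.24 (exact permutation p = 0.0571). ABCG5, a sterol exporter, had 5.78, 5.73, 5.58 and 5.02 in the mated hens, against 7.46, 6.03, 6.34 and 6.90 in the controls, a difference of -1.15 ± 0.46. All mated hens were below the controls for ABCG5, and mated hen 2 overlapped for LPL. Leaving out mated 4, control 1 or control 4 ended the call for ABCG5 (difference -0.90). The array weights ended the calls for ABCG5 (difference -0.89) and LPL (difference -0.45). APOA4, an apolipoprotein, was higher by 0.40 (exact permutation p = 0.0286) without overlap. Of 41 steroid receptor and synthesis genes only HSD17B2, which inactivates oestradiol, passed. It had 6.002, 6.17, 6.19 and 6.62 in the mated hens, against 5.59, 5.88, 6.03 and 5.40 in the controls, a difference of 0.52 ± 0.18 (exact permutation p = 0.0571), and mated hen 1 overlapped the controls. None of 32 prostaglandin genes passed.

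Among 55 chaperones, HSPA13 (STCH on the array), a microsomal member of a heat shock protein family, had 8.67, 8.64, 8.74 and 8.38 in the mated hens, against 9.05, 9.25, 9.28 and 8.77 in the controls, a difference of -0.48 ± 0.19, without overlap. HSPA13 no longer passed without mated 4, control 2 or control 3 (difference -0.41). Of 62 glycosyltransferases POMT2 was lower and ST8SIA3, a sialyltransferase of the brain, higher (0.53, exact permutation p = 0.0571). The call for ST8SIA3 was lost without mated 2, mated 4, control 1, control 2 or control 3 (difference 0.37). In the squamous epithelium list BNC1, a transcription factor of basal keratinocytes and germ cells, was the only one of 27 to pass. BNC1 had 7.16, 7.03, 6.52 and 5.20 in the mated hens, against 8.26, 7.13, 7.55 and 7.25 in the controls, a difference of -1.07 ± 0.47 (exact permutation p = 0.0571). Leaving out mated 3, mated 4, control 1, control 3 or control 4 ended the call for BNC1 (difference -0.64). It was lowest in mated hen 4, where TP63 and KRT5 were highest.

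Genes of the testis and sperm were read as a check for male transcripts in mated hens. The published methods state that sperm presence was established by histology before the tissue was used. Of 58 measured, 1 passed, SYCP3, a meiotic chromosome protein, with 8.92, 9.30, 8.66 and 9.17 in the mated hens, against 8.64, 8.94, 8.52 and 8.56 in the controls, a difference of 0.35 ± 0.16 (exact permutation p = 0.114). SYCP3 no longer passed without mated 1, mated 2, mated 4, control 1, control 3 or control 4 (difference 0.25). The list stood at 0.20, 0.08, -0.13 and 0.14 in the mated hens, against 0.07, 0.00, -0.08 and 0.02 in the controls, and its median was 0.07. In mated hen 1, 16 of the 58 were highest (27.6%, beside 7.76% of all characterised genes) and 2 were lowest. The source of this was not tested. Smooth muscle (30 genes), endothelium (19), erythrocytes (18), columnar epithelium (33) and immediate early genes (25) had no member that passed, with medians of -0.05, -0.08, -0.11, -0.02 and 0.14. The last was -0.02 without mated hen 4.

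Another 14 measured genes were taken from the discussion of mating in the published text, where they had been picked on these same arrays, so their count is not independent of the data. By the brightest feature 10 of them passed the test. Among these, CCR9, TNFSF4 and SLC4A9 were higher and TFPI, F2, HSPA13, NELL1, MMP27 and TBX4 lower, as given above. MASP1, LHX3, NPY6R and PTK2, each with 1 named feature on the array, did not pass. The expressed sequence tags were not assigned to genes, so a tag of any of these genes would not have been counted. The published text lists all of them as differentially expressed after mating, and why the calls differ was not tested. It treats genes past only the unadjusted threshold as suggestive, and reports no chicken probe past adjustment. LHX3, a pituitary and neural factor, differed by -0.18 (exact permutation p = 0.200), NPY6R, a neuropeptide Y receptor, by 0.01 (exact permutation p = 0.971), and PTK2, the focal adhesion kinase, by -0.01 (exact permutation p = 0.800). The NPY6R means of 3.39 in mated and 3.38 in control hens lay below the random control, so no change could be read for it. LHX3 was dim, with means of 4.80 and 4.97. PTK2 was bright and almost constant, with 13.35, 13.37, 13.33 and 13.34 in the mated hens, against 13.39, 13.41, 13.38 and 13.27 in the controls.

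Features without a gene name took a large part of the comparison. Of 15394 expressed sequence tags 359 passed (2.33%), 208 higher (1.35%) and 151 lower (0.981%), beside 469 of 21980 named features (2.13%; 1.35% higher and 0.787% lower), and 9 of the 17 features with a p under 0.001 were tags. The largest differences among all features that passed were an unnamed Ensembl transcript higher by 2.63 and a tag lower by 2.94. Outside the naming rule, and chosen after their values were seen, CBLN1, a synaptic organiser, differed by 1.36 (exact permutation p = 0.0571), and EEF1A2, a translation elongation factor of muscle and nerve, by 1.10 (exact permutation p = 0.0571). For both, the call held without each hen and the groups overlapped.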

How the data were processed

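Whole UVJ tissue of each hen was hybridised, after Cy3 labelling, to a custom NimbleGen chicken array, 1 array a hen and 12 arrays in all. The authors deposited linear intensity values after robust multichip averaging (RMA), which adjusts background, quantile-normalises arrays and summarises probes; 37245 of 37374 features had 3 probes. RMA and limma are the tools in the submitters' processing notes. RMA makes the intensity distributions of arrays alike, so a shift of all genes cannot be seen, and 4 arrays a group limit the precision. A table of the whole series held identical values for 37364 features. The genome build behind the array is not given in the sources used here.

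Values were put on the log2 scale with no pseudocount. A group-mean model over all 12 arrays was fitted in limma 3.58.1 (R 4.3.3) with empirical Bayes moderation, as in the methods, and mated minus control hens was tested two-sided, with Benjamini-Hochberg adjustment over all features. Single genes were also given the exact permutation test of 4 against 4 hens. The script was checked on simulated data. Gene names came from RefSeq accessions in the GRCg7b table (4032 features), from symbols current there (7583) or from the file (10365). Several features of a symbol were tested separately, and the brightest stood for the gene. Array symbols are given where the reference differs.

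Named genes were the 15 higher and 15 lower characterised genes with the smallest p at 1 or more log2 units above the random control, up to 4 members a list by p, marker genes, and genes that the published text discusses. The comparison, the lists and the naming rule were chosen with earlier results of these data known. Replicates are separate hens. Deviations from the group means of same-numbered mated and control hens had r of 0.18, -0.36, 0.62 and 0.51 for numbers 1 to 4. Hens with unlike numbers had r between -0.62 and 0.49. The sources give no pairing of mated with control hens, and 4 correlations cannot show whether the numbers pair them. Alternatives covered centring, quantile normalisation, the series table, level filters, the 8 arrays alone, a replicate block, array weights, a trended robust prior and leaving out each hen. Leaving out mated hens 3 and 4 together was added after the data were seen. Some genes that the rule selects are not described.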

Additional observations from a re-analysis of the deposited data

Results flagged for a closer look

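Single hens stood apart from the other 3 of their group, by Dixon's ratio of the gap to the whole range, in 11 of 224 groups of 4 hens examined (4.91%). The groups came from genes selected by the test and from lists read in the same hens. This share therefore cannot be compared with a chance rate. For named genes that passed the test, the hen apart was mated hen 1 for MYL1 (lowest, ratio 0.873) and for DYSFIP1 (highest, 0.858), and mated hen 3 for TFPI (lowest, 0.865). Among control hens it was hen 2 for PIK3CD (highest, 0.898) and for SNORA28 (lowest, 0.953). The PIK3CD value of control hen 2 is the one that overlaps the mated hens.

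Among list levels in mated hens, hen 4 was apart and lowest for pH regulation and bicarbonate transport (0.864), and hen 3 was lowest for glycosyltransferases (0.881) and highest for erythrocyte genes (0.878). Among list levels in control hens, hen 4 was highest for interferon response genes (0.872), hen 2 highest for prostaglandin genes (0.867) and hen 1 lowest for the tissue markers (0.838). The chemokine and interferon response levels of mated hen 4 did not pass this ratio, because mated hen 3 lay below the other 2 and widened the range.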

How the results depend on the processing

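The count of 828 features past the unadjusted threshold lay between 697 and 940 under median centring, quantile normalisation, the series table, the filter on dim features, the 8 arrays alone, the replicate block and the trended robust prior. It was 189 among the 18687 features at or above the median level. With array weights, which gave mated hens 3 and 4 weights of 0.404 and 0.648, it was 1862 (4.98%). Leaving out 1 hen gave 589 to 2108 features, the highest without mated hen 3 (5.64%, with 1106 higher and 1002 lower, 566 of them among the 828). Without mated hens 3 and 4 together, chosen after seeing the data, 891 passed, 302 of them shared. The replicate block gave 940, with 670 shared, and whether its numbers pair hens is not known.

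No feature passed adjustment under any planned setting, except that leaving out 1 hen gave 0 to 1: without control hen 3 an unnamed Ensembl transcript passed (adjusted p 0.00718). Control hen 3, left out there, was the only control above all mated hens for that transcript. Without mated hens 3 and 4 the count was 0. No named gene that had passed changed direction, and of 66 such genes 39 passed without each hen. Leaving out mated hens 3 and 4 together lost 35 of the 66, array weights 12, the block 9, the 8 arrays alone 7 and the trended prior 2. The 12 lost with array weights were ABCG5, BNC1, CD72, FGF13, ITGB1BP2, LPL, MMP27, NELL1, RYR3, SLC4A9, TBX4 and TNFSF4. The causes were not tested.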
